A study of Homo sapiens with 9 samples.

Results

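Open chromatin was followed around 7 genes of the adrenergic state of neuroblastoma, EYA1, SIX3, DACH1, KLF7, KLF13, SATB1 and ZNF536. A region of the deposited count table was taken as belonging to a gene when its centre lay inside the GRCh38 span of the gene or within 50 kb of either end. This gave 162 of the 148797 regions in the table, of which 148 had enough counts to be tested and 14 did not. Regions centred within 1 kb of a gene end numbered 5, and the other 157 lay deeper inside the genes or outside them.

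The assay was ATAC-seq, in which the Tn5 transposase cuts and tags accessible DNA, so that the count of a region measures how open it is. The cells were SK-N-BE(2)c, a neuroblastoma cell line that is a clonal subline, and all libraries came from cells transfected with 100 nM of an antisense oligonucleotide (ASO) using lipofectamine 2000 and collected 48 h later. The control group received the negative control oligonucleotide NCA, and the other groups received ASO2 or ASO10, which both target the long noncoding RNA NESPR. There were 3 libraries in each of the 3 groups, and the labels do not say whether replicates came from separate transfections, so p-values measure the spread between these libraries, which may be technical. No group of untransfected cells was compared, so effects shared by all oligonucleotides are outside these contrasts.

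Neuroblastoma cells can occupy an adrenergic state, close to the sympathetic neuron lineage, or a mesenchymal state, and each is held by transcription factors whose genes carry large enhancer clusters. SIX3 is a homeodomain factor, EYA1 a coactivator and phosphatase that works with SIX3 and its relatives, and DACH1 a corepressor of the same network, which is known from eye development. KLF7 and KLF13 are zinc-finger factors that bind GC-rich and CACCC sites, SATB1 organises chromatin loops at AT-rich DNA, and ZNF536 is a zinc-finger repressor found in developing neurons.

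Library totals ran from 7293565 to 10948569 counts, and the 162 regions took 0.0934% to 0.109% of them. Of 7 adrenergic marker genes, 6 had an accessible region at a gene end, with summed levels of 137 to 147 CPM (counts per 1000000 counts of the library) in NCA, 123 to 149 in ASO2 and 141 to 147 in ASO10 libraries, and TH had none. Of 6 mesenchymal markers, 4 had such a region, with summed levels of 70.5 to 75.7 CPM in NCA, 69.5 to 79.1 in ASO2 and 65.6 to 83.7 in ASO10 libraries, and PRRX1 and VIM had none. Of 4 blood markers, only SPI1 had one (3.48 to 6.30 CPM in NCA, 2.57 to 5.19 in ASO2 and 2.47 to 3.52 in ASO10), and of 2 hepatocyte markers only APOA1 had one (6.81 to 9.66, 5.47 to 8.62 and 6.25 to 7.62 CPM). These ranges overlapped between the groups in each list. In such bulk libraries, a change in the share of cells with an open region and a change of openness per cell cannot be told apart.

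The first question was whether the starts of these genes changed. The set of RefSeq promoters used here holds 14 start sites for 5 of the genes, and 11 of the promoter windows around them overlapped 7 accessible regions. EYA1 and SIX3 have no entry in that set, so their starts were not placed here. The 250 bases before the outermost start are shown for the 4 genes whose outermost start lay in an accessible region. The next values describe those regions, which hold the whole stretch for DACH1, KLF13 and ZNF536 and only a part of it for SATB1. The stretches come from RefSeq (GRCh38.p14) and are each read 5′ to 3′ towards the gene. Capitals mark 3 short motifs on either strand, CANNTG (the E-box of factors such as HAND2), GATA and TAAT (a homeobox core).
DACH1, chr13:71867205-71867454, minus strand: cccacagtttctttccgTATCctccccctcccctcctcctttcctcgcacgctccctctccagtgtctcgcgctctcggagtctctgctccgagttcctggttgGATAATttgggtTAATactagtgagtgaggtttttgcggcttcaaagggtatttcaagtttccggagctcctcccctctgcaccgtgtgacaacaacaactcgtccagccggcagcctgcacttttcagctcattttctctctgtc
KLF13, chr15:31326585-31326834, plus strand: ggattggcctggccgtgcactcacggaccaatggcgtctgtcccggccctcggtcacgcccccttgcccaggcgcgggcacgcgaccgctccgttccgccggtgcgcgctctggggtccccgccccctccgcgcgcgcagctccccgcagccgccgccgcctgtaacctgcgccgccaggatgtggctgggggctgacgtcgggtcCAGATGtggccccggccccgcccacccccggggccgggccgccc
SATB1, chr3:18445593-18445842, minus strand: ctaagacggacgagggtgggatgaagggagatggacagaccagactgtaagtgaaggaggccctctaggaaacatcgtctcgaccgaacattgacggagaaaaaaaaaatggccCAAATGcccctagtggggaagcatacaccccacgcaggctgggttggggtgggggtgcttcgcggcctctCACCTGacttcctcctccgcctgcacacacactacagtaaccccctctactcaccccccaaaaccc
ZNF536, chr19:30225342-30225591, plus strand: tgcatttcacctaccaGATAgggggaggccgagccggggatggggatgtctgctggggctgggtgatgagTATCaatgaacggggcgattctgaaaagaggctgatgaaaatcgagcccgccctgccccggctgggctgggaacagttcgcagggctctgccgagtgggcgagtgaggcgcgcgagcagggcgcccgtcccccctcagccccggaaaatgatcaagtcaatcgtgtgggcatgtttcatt
The DACH1 stretch held 2 GATA and 2 TAAT matches, with GATA and TAAT overlapping in the letters GATAAT. The ZNF536 stretch held 2 GATA matches, SATB1 held 2 CANNTG matches, and KLF13 held 1 CANNTG match. The SATB1 region ends at 18445713, so the letters of its stretch at higher coordinates, with the match CAAATG, lie outside the region. Over 35116 RefSeq promoters, 61.8% of windows of this length held CANNTG, 45.6% GATA and 47.4% TAAT. KLF13 had a G and C content of 78.8%, against 61.6% for ZNF536, 57.2% for SATB1, 54.0% for DACH1 and a median of 58.0% over all promoters. The GC box GGGCGG had 3 matches in KLF13, 1 in ZNF536 and none in the others, against 42.6% of promoters with a match. CACCC, letters that KLF proteins bind, had 5 matches in SATB1 and 1 each in KLF13 and ZNF536, against 54.7% of promoters. A match is a description of the letters and not a measured binding site.

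Levels at these starts differed widely between genes, and no difference between groups was called. These levels were not corrected for DNA copy number or base content, so their order between genes may not be one of openness alone. Per kb of region in the NCA libraries, the KLF7 start had the highest level, 46.9 ± 5.45 CPM per kb (SD, n = 3). KLF13 followed at 20.4 ± 1.29. The inner ZNF536 start had 10.3 ± 2.74, DACH1 9.51 ± 0.286, the SIX3 gene end 8.98 ± 1.34, the outer ZNF536 start 8.53 ± 1.87 and the inner SATB1 start 7.70 ± 1.62 CPM per kb. Those 5 overlapped one another in their libraries, so their order is not resolved, whereas KLF7, KLF13 and the outer SATB1 start (4.43 ± 0.175) did not overlap any other.

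At the KLF7 start (chr2:207165843-207167223, inside the gene), the libraries had 68.9, 56.1 and 69.3 CPM with NCA, 63.1, 79.6 and 58.2 with ASO2, and 74.4, 75.6 and 84.5 with ASO10. All ASO10 libraries were above all NCA libraries, and ASO2 overlapped both. The log2 difference was 0.27 ± 0.107 (SE) between ASO10 and NCA (adjusted p = 0.265) and 0.05 ± 0.107 between ASO2 and NCA (adjusted p = 0.882). These come from the quasi-likelihood test of edgeR, with p-values adjusted by the Benjamini-Hochberg method over all 119417 tested regions, as for every region in this fit. For sums per gene, p-values were adjusted over the 13802 (gene ends) or 19122 (rest of locus) genes tested. Each alternative fit was adjusted over its own tests. At the KLF13 start (chr15:31325663-31328415), the values were 59.9, 52.8 and 55.9 CPM with NCA, 66.9, 64.7 and 53.7 with ASO2, and 71.2, 69.4 and 64.9 with ASO10. Here too ASO10 lay above NCA in all libraries, with a log2 difference of 0.29 ± 0.110 and an adjusted p of 0.236. Over all 13530 tested regions at gene ends, 17.9% had the 3 ASO10 libraries above the 3 NCA libraries, so this order is not particular to KLF13.

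The DACH1 start (chr13:71864710-71867647) had 28.9, 27.2 and 27.7 CPM with NCA, 28.5, 26.9 and 26.5 with ASO2, and 32.5, 31.3 and 28.5 with ASO10. ASO2 and NCA overlapped, with a log2 difference of -0.03 ± 0.132 (adjusted p = 0.937). The inner ZNF536 start (chr19:30227335-30228706) had 18.4, 11.5 and 12.5 CPM with NCA, 13.6, 13.7 and 11.7 with ASO2, and 19.7, 18.7 and 16.9 with ASO10. ASO2 lay below ASO10 in all libraries, by -0.51 ± 0.163 on the log2 scale, and just missed the threshold of 0.05 (adjusted p = 0.0524). The outer ZNF536 start (16.4, 10.8 and 16.3, then 15.9, 17.1 and 11.9, then 17.6, 16.8 and 14.7 CPM for NCA, ASO2 and ASO10) overlapped between all groups.

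The outer SATB1 start (chr3:18443890-18445713) had 7.86, 8.45 and 7.94 CPM with NCA, 8.56, 7.94 and 6.42 with ASO2, and 7.39, 5.80 and 7.81 with ASO10. ASO10 lay narrowly below NCA, with a log2 difference of -0.21 ± 0.230 and an adjusted p of 0.81. The inner SATB1 start, which is also the strongest SATB1 region away from the gene ends, had 10.8, 10.8 and 15.3 CPM with NCA, 13.8, 10.6 and 7.43 with ASO2, and 9.38, 7.96 and 14.8 with ASO10, and overlapped between groups. The SIX3 gene-end region (chr2:44941433-44943919) had 25.9, 21.8 and 19.3 CPM with NCA, 27.4, 22 and 20.6 with ASO2, and 27.8, 21.8 and 21.7 with ASO10, and also overlapped throughout.

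**Figure D1:**
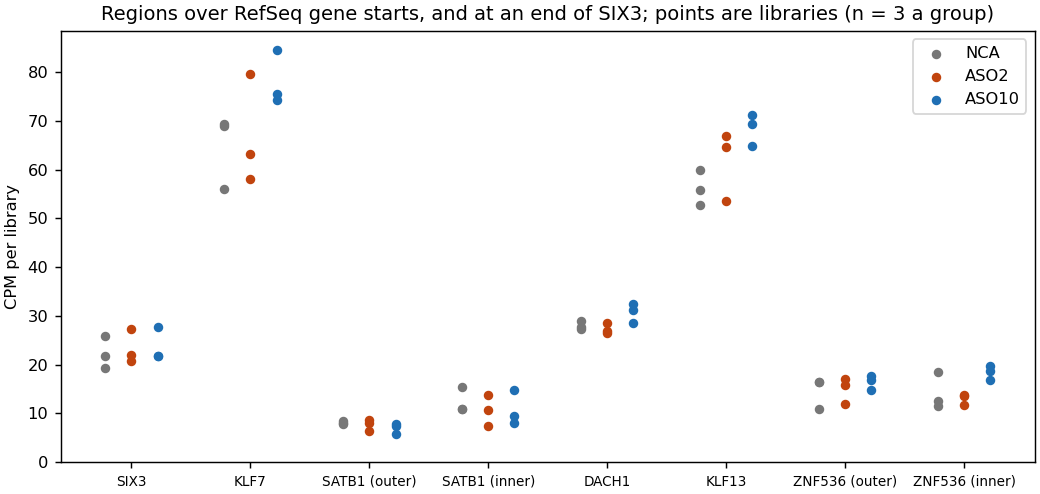
Level of the 7 regions over RefSeq starts and of the SIX3 gene-end region (vertical axis, CPM) in each library (points, 3 a group, coloured by oligonucleotide). KLF7 and KLF13 stand highest, and only for them do all ASO10 points lie above all NCA points.

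None of the 7 start regions was called by edgeR in any contrast, and DESeq2 and limma-voom also called none. Of the 13530 tested regions at gene ends, edgeR called 1.54% with ASO2, 2.14% with ASO10 and 3.31% between the oligonucleotides. At such shares, 0 calls among 7 regions does not show that the starts were unchanged. At an unadjusted p under 0.05 there were 0, 3 and 2 of them for ASO2 against NCA, ASO10 against NCA and ASO2 against ASO10, where 10.4%, 17.3% and 20% of the 13530 regions at gene ends had one. The start regions of KLF7 and DACH1 and the inner ones of SATB1 and ZNF536 are centred more than 1 kb from an end, so they are not in that class. Over all tested regions the shares at an unadjusted p under 0.05 were 16.5%, 10.6% and 14.6%. The 3 start regions with ASO10 against NCA were those of KLF7 and KLF13 and the inner one of ZNF536, all higher with ASO10. Counts summed over the gene-end regions of SIX3, KLF13, SATB1 and ZNF536 were likewise called in 0 of 4 genes in each contrast by edgeR, DESeq2 and limma-voom, where 0.203%, 4.86% and 5% of the 13802 genes tested were called in those contrasts. The nearest was KLF13 with ASO10 against NCA, at 66.1, 58.5 and 59.5 against 74.2, 75.3 and 69.9 CPM, a log2 difference of 0.26 ± 0.102 with an unadjusted p of 0.0124 and an adjusted p of 0.129.

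Away from the gene ends the genes differed in what they showed. With ASO2 against NCA, 19 of the 148 tested regions were called at an adjusted p under 0.05, 17 higher and 2 lower, or 12.8%, where the share over all tested regions was 5.6% (4.79% higher and 0.808% lower). With ASO10 against NCA, 3 were called, 2 higher and 1 lower, or 2.03% against 1.09% over all (0.876% higher and 0.21% lower), and only 1 was called without NCA replicate 1 or without ASO10 replicate 1. Directly between the oligonucleotides, 15 were called, 13 higher and 2 lower with ASO2, or 10.1% against 3.23% over all (2.54% higher and 0.682% lower). That count fell to 7 without ASO10 replicate 3, to 8 without ASO2 replicate 1, to 9 without ASO2 replicate 2, ASO2 replicate 3 or ASO10 replicate 2, and to 9 by limma-voom. In all, 24 regions were called in at least 1 contrast and none lay at a gene end. The contrasts share libraries, so their calls are not independent of one another. Of the 24, 2 were called with both oligonucleotides in the same direction, 17 with ASO2 only and 1 with ASO10 only, and 4 only between the oligonucleotides. Of the 17 called with ASO2 only, the direct contrast called 11.

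The 3 ASO2 libraries lay above the 3 NCA libraries in 29 of 148 regions (19.6%), against 11.9% of all tested regions, and below them in 9 (6.08%, against 8.57%). For ASO10 these counts were 9 above (6.08%, against 8.51%) and 10 below (6.76%, against 7.15%). The ASO2 libraries lay above the ASO10 libraries in 23 (15.5%, against 11% over all) and below them in 8 (5.41%, against 8.31%). The ASO2 excess was in EYA1 and DACH1, which held 14 of the 17 higher calls. The other 5 genes together had 3 of 92 regions called with ASO2 (3.26%, below the 5.6% over all). They had 1 called with ASO10 (1.09%, the same as over all) and 4 between the oligonucleotides (4.35%, above the 3.23% over all).

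**Figure D2:**
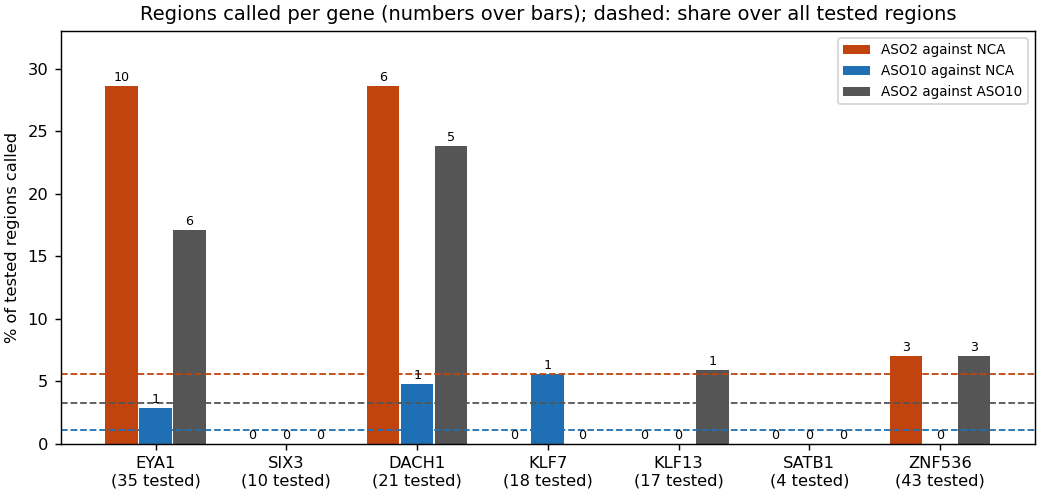
Share of each gene's tested regions that were called (vertical axis, %), with the number called above each bar and the share over all tested regions as dashed lines in the same colours. EYA1 and DACH1 each reach 28.6% for ASO2 against NCA, and SIX3 and SATB1 have no call.

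Calls varied with mean level in the whole table, so the members were also read within bands of mean level. Between 2 and 3 log2 CPM, 8 of 29 member regions were higher with ASO2, against 9.90% of 20704 regions in the band. Between 3 and 4, 5 of 24 were higher, against 11.4%, and above 4, 2 of 13 against 5.47%. Between 1 and 2, the band with the most members, 2 of 47 were higher, against 3.62%. Below 1 log2 CPM none of 35 was higher, against 0.678%. The 17 higher regions had a median width of 904 bases and a median level of 2.64 log2 CPM, and the other 131 tested regions 534 bases and 1.64. All 5722 regions higher with ASO2 had medians of 759 bases and 2.64 log2 CPM.

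To see whether whole loci moved, counts were summed over all of a gene's regions away from its ends. The EYA1 sum was 178.7, 173.7 and 182.1 CPM with NCA, 223.3, 235.1 and 216.5 with ASO2, and 205.3, 200.9 and 200.4 with ASO10. The groups did not overlap, ASO2 being highest and NCA lowest. EYA1 rose by 0.34 ± 0.060 on the log2 scale with ASO2 (adjusted p = 4.65e-06) and by 0.18 ± 0.061 with ASO10 (adjusted p = 0.0337), and the difference between the oligonucleotides, 0.15 ± 0.060, was not called (adjusted p = 0.0585).

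The DACH1 sum was 110.8, 107.5 and 122.0 CPM with NCA, 169.4, 170.4 and 155.9 with ASO2, and 135.5, 138.4 and 128.0 with ASO10. Again no groups overlapped and the order was the same. DACH1 rose by 0.54 ± 0.067 with ASO2 (adjusted p = 3.64e-12) and by 0.24 ± 0.068 with ASO10 (adjusted p = 0.00993), and ASO2 exceeded ASO10 by 0.30 ± 0.066 (adjusted p = 0.00034). These tests covered 19122 genes, of which 8.22% were called with ASO2, 9.89% with ASO10 and 16.8% between the oligonucleotides. The ASO10 calls were the weak ones. EYA1 lost its call in 7 of the 9 fits that left out 1 library (all but those without ASO2 replicate 2 or 3), with adjusted p up to 0.155, and DACH1 lost it without NCA replicate 1 or 2 or ASO10 replicate 1 or 2, with adjusted p up to 0.102. With offsets that follow abundance (loess), the ASO10 values were 0.07 for EYA1 and 0.13 for DACH1, with adjusted p of 0.42 and 0.14.

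Much of each sum lay in the called regions. Leaving out every called region chooses regions by their outcome, so p-values of that fit are not read here. The 29 remaining EYA1 regions had 100.2 ± 4.68 CPM with NCA, 102.2 ± 4.19 with ASO2 and 103.9 ± 5.02 with ASO10. The 16 remaining DACH1 regions had 78.6 ± 4.31, 92.5 ± 5.28 and 85.4 ± 3.39 CPM. Thus the EYA1 remainder had log2 differences of 0.03 and 0.05 from NCA, and the DACH1 remainder 0.23 with ASO2 and 0.12 with ASO10. In the main fit the sums of the other 5 genes were not called in any contrast, with log2 differences from -0.20 (SIX3, ASO2 against NCA) to 0.10 (KLF13, ASO2 against ASO10).

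**Figure D3:**
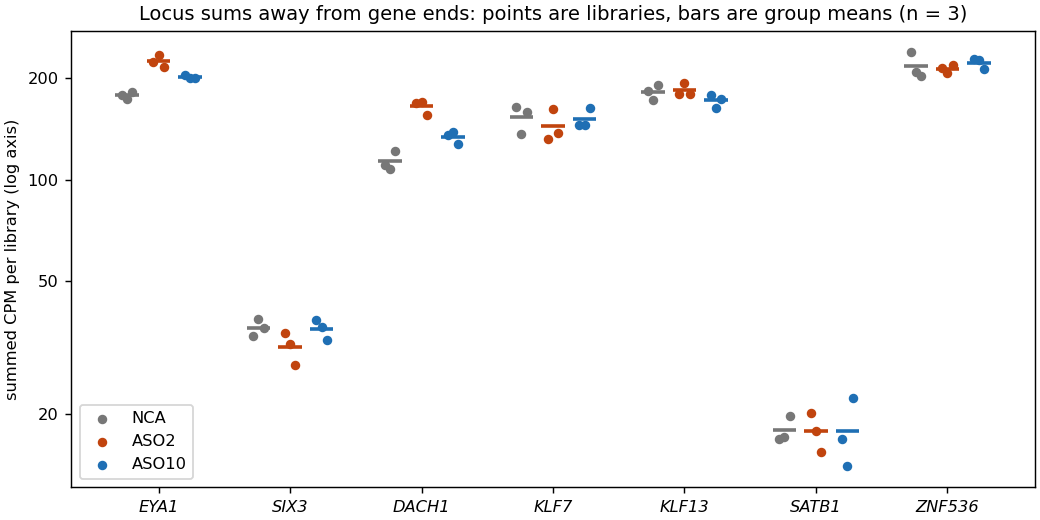
Counts summed over each gene's regions away from its ends, in CPM on a log axis, for each library (points) with group means (bars, n = 3). The 3 groups separate for EYA1 and DACH1 and overlap for the other genes, apart from KLF13, where the ASO2 points lie above the ASO10 points.

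EYA1 (chr8:71197433-71548094) had 35 tested regions, none within 1 kb of an end. With ASO2 against NCA, 8 rose and 2 fell (28.6%), and the median log2 difference over the 35 was 0.18, against -0.02 over all regions. With ASO10, 1 was called, and 6 were called between the oligonucleotides. A cluster of calls lay around the upper-coordinate end, where 4 of the 5 tested regions within 25 kb rose with ASO2.

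Outside the gene, 18.1 kb beyond that end, chr8:71565573-71566823 had 2.45, 4.16 and 4.43 CPM with NCA, 11.2, 9.87 and 6.42 with ASO2, and 5.04, 7.05 and 3.39 with ASO10. ASO2 lay above NCA in all libraries, while ASO2 replicate 3 fell below ASO10 replicate 2. The rise with ASO2 was 1.29 ± 0.264 on the log2 scale (adjusted p = 9.18e-05). Its neighbour chr8:71559816-71560763, 12.2 kb beyond the end, had 3.61, 4.16 and 3.06 CPM with NCA, 10.1, 9.12 and 6.70 with ASO2, and 3.64, 4.10 and 4.17 with ASO10. ASO2 stood above both other groups, which overlapped each other. It rose by 1.25 ± 0.276 against NCA (adjusted p = 0.000416) and by 1.11 ± 0.272 against ASO10 (adjusted p = 0.00407, lost without ASO2 replicate 1 at 0.068).

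Inside the gene, 12.4 kb from the same end, chr8:71535221-71536113 had 3.99, 3.15 and 3.63 CPM with NCA, 8.42, 9.12 and 7.16 with ASO2, and 4.69, 4.89 and 3.91 with ASO10. It rose by 1.19 ± 0.276 with ASO2 (adjusted p = 0.000889), with ASO10 overlapping NCA. At 18.1 kb inside, chr8:71529666-71530297 had 3.48, 5.17 and 3.18 CPM with NCA, 8.28, 9.34 and 8.07 with ASO2, and 2.93, 5.69 and 4.17 with ASO10. It rose by 1.12 ± 0.269 with ASO2 (adjusted p = 0.00152) and by 1.00 ± 0.265 against ASO10 (adjusted p = 0.0105), the latter call being lost without ASO2 replicate 2 or ASO10 replicate 1 or 3 (adjusted p up to 0.168). The region whose centre is 1.77 kb further in went the other way. In chr8:71527698-71528721 the libraries had 8.50, 6.81 and 6.24 CPM with NCA, 2.95, 3.76 and 4.77 with ASO2, and 5.16, 6.94 and 3.52 with ASO10. All ASO2 libraries were below all NCA libraries, and it fell by 0.88 on the log2 scale (SE 0.275, adjusted p = 0.0292). That fall was not called by DESeq2 or limma-voom, nor without NCA replicate 1 or 2 or ASO2 replicate 1 or 2 (adjusted p up to 0.203). Both of these regions also lie in the span of LOC124901961.

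Deeper in EYA1, chr8:71420042-71420946 had 5.67, 6.56 and 6.58 CPM with NCA, 11.5, 12.9 and 11.9 with ASO2, and 7.98, 6.26 and 6.12 with ASO10. ASO2 stood alone above the other groups, by 0.95 ± 0.217 against NCA (adjusted p = 0.000726) and 0.83 ± 0.214 against ASO10 (adjusted p = 0.00727), the latter call being lost without ASO2 replicate 2 or ASO10 replicate 2 or 3 (adjusted p up to 0.0703). The region chr8:71301081-71302017 had another pattern, with 8.63, 8.07 and 12.7 CPM with NCA, 18.9, 17.1 and 18 with ASO2, and 19.0, 15.0 and 15.8 with ASO10. Both oligonucleotides lay above NCA and overlapped each other. It rose by 0.87 ± 0.170 with ASO2 (adjusted p = 3.98e-05) and by 0.75 ± 0.172 with ASO10 (adjusted p = 0.0044), and the ASO10 call was lost without NCA replicate 1 or 2 or ASO10 replicate 1 (adjusted p up to 0.132).

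The strongest EYA1 region, chr8:71361570-71362493, had 25.8, 24.2 and 27.9 CPM with NCA, 33.7, 35.9 and 35.6 with ASO2, and 38.2, 32.7 and 33.5 with ASO10. Every treated library exceeded every NCA library. The log2 difference was 0.43 ± 0.129 with ASO2 (adjusted p = 0.0186) and 0.42 ± 0.129 with ASO10 (adjusted p = 0.0771), so only the former was called although the values were nearly equal (0.01 ± 0.126 between them, adjusted p = 0.978). The ASO2 call was lost without NCA replicate 1 or 2 or ASO2 replicate 2 or 3 (adjusted p up to 0.134). Nearby chr8:71356541-71357149 had 10.0, 11.6 and 15.3 CPM with NCA, 17.7, 20.6 and 18.5 with ASO2, and 16.7, 15.2 and 14.6 with ASO10, and rose by 0.62 ± 0.163 with ASO2 (adjusted p = 0.0057). ASO10 overlapped NCA here, and the ASO2 call was lost without NCA replicate 1 or ASO2 replicate 2 (adjusted p up to 0.133).

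The other fall was in a region of few counts, chr8:71492677-71492878, with 8, 24 and 8 counts in the NCA libraries, 0, 4 and 2 with ASO2, and 8, 19 and 13 with ASO10. ASO2 lay below both other groups, by -2.85 ± 0.841 on the log2 scale against NCA (adjusted p = 0.0177) and -2.81 ± 0.841 against ASO10 (adjusted p = 0.032). At these counts the size is poorly held, and the call against NCA was lost under limma-voom and without NCA replicate 2 or ASO2 replicate 1 or 3 (adjusted p up to 0.326). DESeq2 gave the region no adjusted p, so it made no call there.

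**Figure D4:**
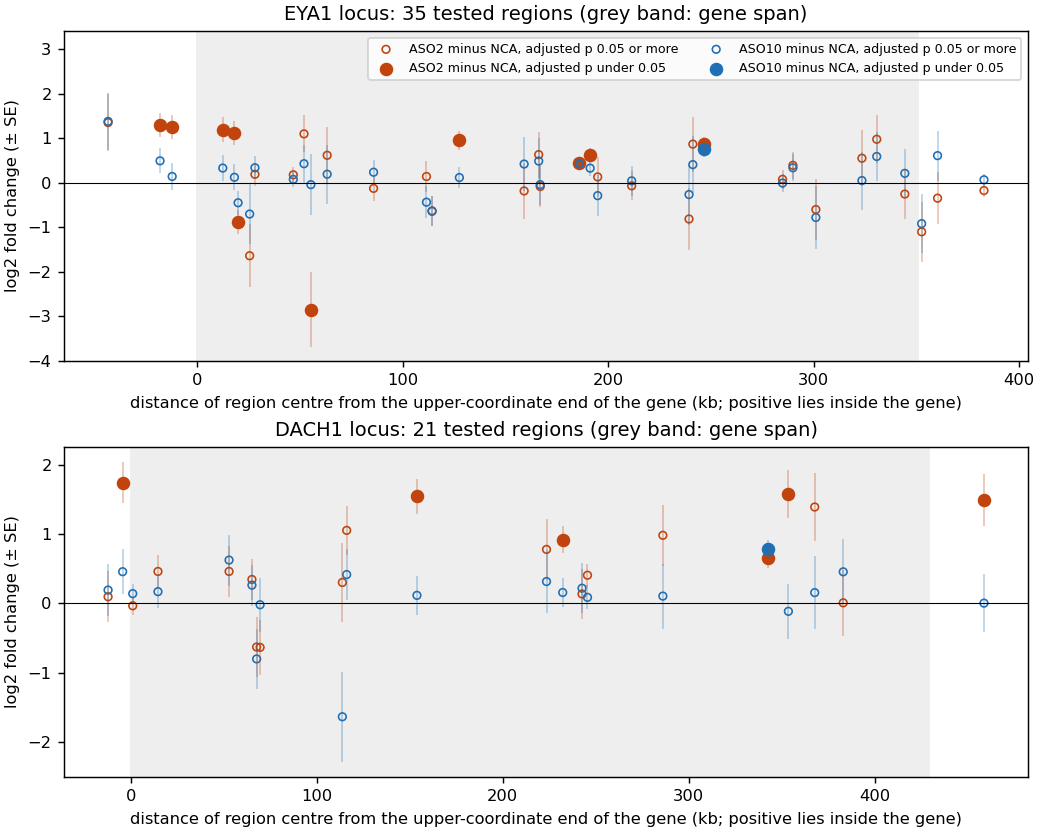
Log2 difference from NCA with its SE (vertical axis) for every tested EYA1 and DACH1 region, against the distance of its centre from the gene's upper-coordinate end (kb, inside positive), with filled points for calls and grey for the gene span. Filled ASO2 points gather on both sides of the EYA1 end and are spread over the DACH1 span.

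DACH1 (chr13:71437966-71867204, minus strand, so its start is at the upper coordinate) had 21 tested regions. With ASO2, 6 rose and none fell by edgeR (28.6%), and DESeq2 and limma-voom also called 6 higher. The ASO2 libraries lay above the NCA libraries in 11 of the 21, and the median log2 difference was 0.46. With ASO10, 1 was called, and 5 were called between the oligonucleotides, all higher with ASO2.

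Upstream of the start, 4.396 kb beyond the gene end, chr13:71871273-71871926 had 2.19, 2.77 and 2.84 CPM with NCA, 9.96, 9.12 and 7.25 with ASO2, and 4.81, 3.41 and 2.47 with ASO10. ASO2 stood above both other groups. It rose by 1.74 ± 0.296 against NCA (adjusted p = 1.03e-06), a 3.34-fold difference, and by 1.28 ± 0.283 against ASO10 (adjusted p = 0.000912). The start region of DACH1 was not called, with ASO2 at 27.3 ± 1.04 and NCA at 27.9 ± 0.839 CPM (n = 3). Within the gene, chr13:71713045-71713598 had 4.77, 2.27 and 4.20 CPM with NCA, 10.8, 12.6 and 9.54 with ASO2, and 3.52, 5.23 and 3.39 with ASO10. It rose by 1.54 ± 0.256 against NCA (adjusted p = 4.39e-07) and by 1.43 ± 0.252 against ASO10 (adjusted p = 8.39e-06).

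Also inside DACH1, chr13:71634423-71635428 had 7.34, 9.20 and 6.69 CPM with NCA, 16.1, 12.4 and 15.4 with ASO2, and 8.56, 11.0 and 6.12 with ASO10. ASO2 was above the other groups, by 0.92 ± 0.196 against NCA (adjusted p = 0.000222) and 0.76 ± 0.193 against ASO10 (adjusted p = 0.00612), the latter call being lost without ASO2 replicate 1 or 3 or ASO10 replicate 3 (adjusted p up to 0.175). In chr13:71513192-71513944 the libraries had 1.80, 1.64 and 3.06 CPM with NCA, 7.86, 5.47 and 6.42 with ASO2, and 1.17, 1.82 and 3.13 with ASO10. Among the called DACH1 regions this had the widest gap between the oligonucleotides, 1.69 ± 0.355 on the log2 scale (adjusted p = 0.00037), and it rose by 1.58 ± 0.352 against NCA (adjusted p = 0.000472). Outside the other end of the gene, by 29.6 kb, chr13:71408048-71408697 had 1.93, 1.77 and 2.27 CPM with NCA, 5.75, 3.97 and 7.06 with ASO2, and 1.88, 2.16 and 1.95 with ASO10. It rose by 1.49 ± 0.377 with ASO2 (adjusted p = 0.0033), and this call and that against ASO10 were lost without ASO2 replicate 3 (adjusted p up to 0.0937 and 0.133).

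The exception in DACH1 was chr13:71524191-71525236, the region that rose with both oligonucleotides. It had 15.6, 14.6 and 19.4 CPM with NCA, 24.6, 30.3 and 23.7 with ASO2, and 30.3, 32.7 and 22.1 with ASO10. Both treated groups were above NCA and overlapped each other. The rise was 0.66 ± 0.143 with ASO2 (adjusted p = 0.000329) and 0.78 ± 0.143 with ASO10 (adjusted p = 0.000109), and the ASO10 call held in all 17 alternative fits.

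**Figure D5:**
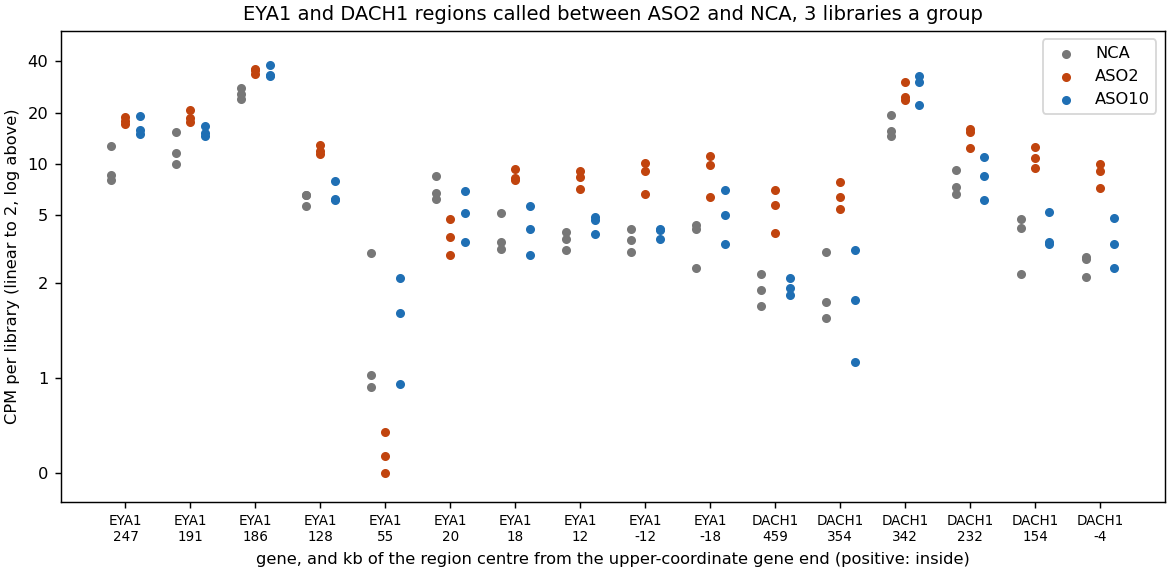
CPM in each library (vertical axis, linear to 2 and logarithmic above) for the 16 EYA1 and DACH1 regions called between ASO2 and NCA, ordered by gene and labelled with the distance in kb from the upper-coordinate end. In 14 of them the ASO2 points lie above the NCA points, and in most of them ASO10 overlaps NCA.

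The surroundings of the 2 loci differed. In the 1000 kb beyond the EYA1 window on both sides, 7 of 128 tested regions were called with ASO2 (5.47%), and the median log2 difference was -0.02, close to chromosome 8 as a whole (5.74%). In the 1000 kb beyond the DACH1 window, 9 of 62 were called (14.5%), all higher, with a median of 0.47, against 8.56% on chromosome 13 as a whole. The ASO2 libraries lay above the NCA libraries in 37.1% of those DACH1 neighbours.

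ZNF536 (chr19:30225592-30713586) had 43 tested regions, the most of the 7 genes. With ASO2, 3 rose (6.98%, near the 5.6% over all), with ASO10 none was called by edgeR, where 6 had an unadjusted p under 0.05 and DESeq2 and limma-voom also called none. In chr19:30547054-30548050 the libraries had 2.96, 2.90 and 3.4 CPM with NCA, 4.77, 8.05 and 6.97 with ASO2, and 4.46, 5.69 and 7.68 with ASO10. Every treated library was above every NCA library, with differences of 1.10 ± 0.289 for ASO2 (adjusted p = 0.0051, lost without ASO2 replicate 2 at 0.0964) and 0.93 ± 0.294 for ASO10 (adjusted p = 0.0923). The regions chr19:30356190-30356999 (1.67, 1.77 and 4.54 CPM with NCA, 7.02, 3.76 and 5.96 with ASO2) and chr19:30512329-30513275 (8.25, 8.83 and 11.6 against 14.9, 16.4 and 11.3) rose by 1.04 ± 0.326 and 0.56 ± 0.181, with adjusted p of 0.032 and 0.0407. In both, 1 ASO2 library lay within the NCA range. Both calls were lost with loess offsets, DESeq2 and limma-voom and when NCA replicate 1 or 2 or ASO2 replicate 1 was left out. The former was also lost without ASO2 replicate 3 and the latter without ASO2 replicate 2 or ASO10 replicate 3 (adjusted p up to 0.25 and 0.305).

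Between the oligonucleotides, 2 ZNF536 regions were higher and 1 lower with ASO2. In chr19:30253494-30254433, ASO2 had 11.1, 8.69 and 11.9 CPM, ASO10 5.75, 6.71 and 6.12, and NCA 7.86, 7.31 and 6.69. ASO2 was highest in all libraries, by 0.77 ± 0.222 against ASO10 (adjusted p = 0.0237). In chr19:30567433-30568145, ASO2 had 9.68, 10.3 and 10.8 CPM, ASO10 7.62, 6.14 and 4.82, and NCA 7.99, 7.44 and 7.94, a difference of 0.73 ± 0.222 (adjusted p = 0.0371). The strongest ZNF536 region, chr19:30386770-30388442, had 17.3, 13.2 and 15.3 CPM with ASO2, 20.8, 21.6 and 21.6 with ASO10, and 28.3, 17.3 and 16.9 with NCA, where replicate 1 stood apart. ASO2 was lower than ASO10 by -0.49 ± 0.152 (adjusted p = 0.0433). These calls were lost in 7, 9 and 12 of 17 alternative fits, among them limma-voom, loess offsets and the fits without ASO2 replicate 1 or 3 or ASO10 replicate 2 or 3 (adjusted p up to 0.18, 0.274 and 0.238). The first was also lost without ASO10 replicate 1, the second without ASO2 replicate 2, and the third without NCA replicate 1, ASO2 replicate 2 or ASO10 replicate 1.

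KLF7 (chr2:207074137-207173851, minus strand) had 18 tested regions and 1 call, the only one made with ASO10 alone. The region chr2:207066924-207068030, 6.66 kb beyond the lower-coordinate end, had 18.7, 16.9 and 19.97 CPM with NCA, 14.5, 15.2 and 14.3 with ASO2, and 12.9, 10.9 and 12.2 with ASO10. The 3 groups did not overlap, NCA being highest and ASO10 lowest. The difference was -0.62 ± 0.166 with ASO10 (adjusted p = 0.024) and -0.34 ± 0.161 with ASO2 (adjusted p = 0.257), and ASO2 and ASO10 differed by 0.29 ± 0.168 (adjusted p = 0.434). The ASO10 call was lost under limma-voom and without NCA replicate 1 or 3 or any 1 ASO10 library (adjusted p up to 0.186). With ASO2 none of the 18 was called by edgeR, 3 had an unadjusted p under 0.05, and DESeq2 called none and limma-voom 1, higher.

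KLF13 (chr15:31326835-31435665, plus strand) had 17 tested regions, of which 3 also fall in the window of its neighbour OTUD7A. None was called by edgeR with ASO2 or ASO10 against NCA (1 and 4 at an unadjusted p under 0.05), and DESeq2 and limma-voom also called none. One differed between the oligonucleotides. In chr15:31364363-31364846, inside the gene, the libraries had 6.31, 7.56 and 6.13 CPM with NCA, 11.4, 7.51 and 8.07 with ASO2, and 5.04, 2.96 and 3.52 with ASO10. NCA lay between, overlapping ASO2 only, and the log2 differences from NCA were 0.42 ± 0.240 with ASO2 (adjusted p = 0.386) and -0.79 ± 0.264 with ASO10 (adjusted p = 0.126). The direct difference was 1.21 ± 0.255 (adjusted p = 0.000416) and was called in all 17 alternative fits. The strongest KLF13 region away from the ends, chr15:31396981-31398921, is 33.3 kb from it and overlapped between all groups, at 52.8 ± 2.46 CPM with NCA, 56.4 ± 3.08 with ASO2 and 51.6 ± 6 with ASO10.

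SIX3 (chr2:44941702-44946071) is the shortest of the genes, and 5 of its 11 regions also fall in the window of SIX2. None of its 10 tested regions was called by edgeR in any contrast, with 0, 0 and 1 at an unadjusted p under 0.05, and DESeq2 and limma-voom also called none. That 1 was its strongest region away from the ends, chr2:44955031-44956337, at 10.3, 12.2 and 14.4 CPM with NCA, 11.4, 8.69 and 9.27 with ASO2, and 14.9, 11.7 and 12.0 with ASO10. ASO2 was below ASO10 in all libraries by -0.41 ± 0.186 (adjusted p = 0.261) and overlapped NCA. SATB1 (chr3:18345377-18445592, minus strand) had the sparsest locus, with 4 regions, or 2 per 100 kb of window against 4.16 to 10.5 for the other genes. None of the 4 was called by edgeR and none had an unadjusted p under 0.05, and DESeq2 and limma-voom also called none.

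By the smallest root-mean-square difference of centred log2 CPM over the 9 libraries, the genes whose gene-end sums were most like each member were IGF2BP1 and MAP7 for SIX3 (0.0796 and 0.0807), CD2BP2 and DPF3 for KLF13 (0.0411 and 0.0433), SLC6A15 for SATB1 (0.0688), and BASP1 and IRAK1 for ZNF536 (0.0663 and 0.0776). They were the nearest of 10724 genes compared (10725 for SATB1), and the likeness is a description only.

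Among 25 relatives of these genes (family members of EYA1, SIX3, DACH1, the KLF genes and SATB1), 24 had tested regions, 260 regions in all. With ASO2, 21 rose and 1 fell (8.46%, against 5.6% over all), with ASO10 2 rose (0.769%, against 1.09%), and between the oligonucleotides 8 were higher and 2 lower with ASO2 (3.85%, against 3.23%). Of the 21, 11 were among the 46 tested regions of KLF12, a repressor of the KLF family that lies 1820 kb from DACH1 on the same chromosome. Its summed level was 222.6, 249.4 and 241.7 CPM with NCA, 316.7, 337.5 and 285.8 with ASO2, and 249.0, 257.4 and 245.7 with ASO10, and it rose by 0.40 ± 0.057 with ASO2 (adjusted p = 3.71e-09). EYA4, a paralogue of EYA1, had 3 of 21 regions higher and a summed level that rose by 0.27 ± 0.067 with ASO2 (adjusted p = 0.0022), from 120.2, 123.7 and 128.2 to 150.6, 154.7 and 144.0 CPM. Of the 23 family locus sums tested, 4 rose with ASO2 (also SIX4 and KLF6) and 1, KLF11, fell by 0.28 on the log2 scale (SE 0.096, adjusted p = 0.042). Over all 19122 genes tested, 8.22% of locus sums were called with ASO2. The calls of KLF6 (adjusted p = 0.0491) and KLF11 were lost in 14 and 11 of 17 alternative fits, and that of SIX4 (adjusted p = 0.0191) without NCA replicate 2 or ASO2 replicate 2. With ASO10, 2 of the 23 rose, SIX5 and KLF16, and between the oligonucleotides KLF12 was higher and KLF9 and KLF10 lower with ASO2. Over all genes, 9.89% of locus sums were called with ASO10 and 16.8% between the oligonucleotides. The calls of KLF12 and KLF10 between the oligonucleotides held in all 17 alternative fits. Those of KLF9, SIX5 and KLF16 were lost in 10, 4 and 2 of 17 (adjusted p up to 0.438, 0.0818 and 0.0809). EYA2 had 1 of 20 regions called, lower, and DACH2 had 1 tested region, not called.

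For 13 genes of the adrenergic core circuit, 130 regions were tested. With ASO2, 4 rose and none fell by edgeR (3.08%, against 5.6% over all), with ASO10 1 rose (0.769%, against 1.09%), and between the oligonucleotides 2 were higher and 1 lower with ASO2 (2.31%, against 3.23%), so each share lay below that over all regions. MEIS2, a homeodomain factor, was the gene of this list whose summed level rose with ASO2, from 105.1, 102.4 and 101.6 to 122.9, 130.6 and 125.7 CPM, by 0.30 ± 0.070 (adjusted p = 0.00131). The gene-end level of TBX2, a T-box repressor, rose with ASO10, from 19.3, 24.2 and 22 to 30.4, 30.3 and 30.7 CPM, by 0.48 ± 0.136 (adjusted p = 0.0182), a call lost with loess offsets and without NCA replicate 1 or 3 or any 1 ASO10 library (adjusted p up to 0.153). Between the oligonucleotides, the locus sum of MEIS2 was higher and its gene-end sum and the locus sum of GATA3 were lower with ASO2 (adjusted p = 0.0299, 0.0484 and 0.0272), and these calls were lost in 6, 10 and 5 of 17 alternative fits. Over all genes, 8.22% of locus sums were called with ASO2 and 16.8% between the oligonucleotides. For gene-end sums the shares were 4.86% with ASO10 and 5% between the oligonucleotides.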

How the data were processed

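The deposited table holds counts per region, whole numbers per library, and in this file the authors gave no normalisation, as its values show. Per the submitters' processing notes, FastQC, Bowtie2 2.2.6, SAMtools, MACS2 2.1.2, DESeq2 1.42.0 and the build hg38 (GRCh38) were used; what exactly was counted (fragments or cut sites, shifted or not), and any duplicate filter, is not given in the sources used here. Region coordinates are printed as the table names them, and whether they count from 0 or 1 is not stated.

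Groups came from the treatment labels, 3 libraries each. Counts were fitted with edgeR 4.0.16 (robust quasi-likelihood, TMM factors, filterByExpr by group) in R 4.3.3 over all 9 libraries, and p-values were adjusted by Benjamini-Hochberg over the 119417 regions kept of 148797. A region is called at an adjusted p under 0.05. CPM are counts per 1000000 of the TMM-scaled library total, given as mean ± SD, and log2 differences carry the SE of the fit. Gene-end sums (13802 genes) and sums over the rest of each locus (19122 genes) were tested likewise among 20037 protein-coding genes, with the region fit's library sizes. The biological coefficient of variation was 23.5%, and replicate libraries differed by 2.74 to 3.42 times counting noise (chi-square per degree of freedom), so no library was counted as a duplicate. The scripts were tested on simulated data. Gene spans came from RefSeq, and no exon annotation was used.

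Named were, for each of the 7 genes, the strongest region within 1 kb of an end, the strongest elsewhere, and every called region; the regions over RefSeq starts were added after values were seen. The genes and lists were chosen with earlier results of these data known. Alternatives were RLE factors, loess offsets, DESeq2 1.42.0, limma-voom (limma 3.58.1), other filters and windows, a replicate block, only the groups compared, and each library left out. A second gene whose gene-end sum was like that of SATB1 is not reported here.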

Additional observations from a re-analysis of the deposited data

Results flagged for a closer look

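In 15 regions the effects of the 2 oligonucleotides differed in the direct edgeR test of ASO2 against ASO10 (adjusted p under 0.05), which is what brought them here. In EYA1, ASO2 exceeded ASO10 by 0.8337 on the log2 scale in chr8:71420042-71420946, 1.0011 in chr8:71529666-71530297, 0.863 in chr8:71535221-71536113, 1.1103 in chr8:71559816-71560763 and 0.8024 in chr8:71565573-71566823, and was lower by -2.8091 in chr8:71492677-71492878. The calls of chr8:71535221-71536113 and chr8:71565573-71566823 (adjusted p = 0.0419 and 0.0468) were lost under loess offsets, DESeq2, limma-voom and no filter and without ASO2 replicate 1 or 2 or ASO10 replicate 1 or 3, and the former also without ASO2 replicate 3 or ASO10 replicate 2 (adjusted p up to 0.207 and 0.365). That of chr8:71492677-71492878 was lost under limma-voom and without NCA replicate 2, ASO2 replicate 1 or 3 or ASO10 replicate 2 or 3 (adjusted p up to 0.221), and DESeq2 gave it no adjusted p.

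In DACH1, ASO2 was higher by 1.4821 in chr13:71408048-71408697, 1.6918 in chr13:71513192-71513944, 0.7623 in chr13:71634423-71635428, 1.4269 in chr13:71713045-71713598 and 1.281 in chr13:71871273-71871926. The calls of chr13:71513192-71513944, chr13:71713045-71713598 and chr13:71871273-71871926 held in all 17 alternative fits. In KLF13 it was higher by 1.2091 in chr15:31364363-31364846. In ZNF536 it was higher by 0.7696 in chr19:30253494-30254433 and 0.7265 in chr19:30567433-30568145, and lower by -0.4892 in chr19:30386770-30388442. In these 4 regions of KLF13 and ZNF536 the differences from NCA had opposite signs and neither was called.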

How the results depend on the processing

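No result changed direction and call together in the 2234 pairs of a result and an alternative, of which 2001 stayed the same. For a test this meant an unchanged call, and for a count a value within a set factor of the main one. Of the others, 195 lost a call, 15 gained one and 23 were counts that moved further. The lost calls include those of EYA1 and DACH1 sums without the called regions, where the choice of regions itself lowers the difference. Of 623 pairs for called regions, 106 lost the call.

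The ASO2 against NCA count was 14 to 20 when 1 library was left out, 15 by DESeq2 and 16 by limma-voom. Its split of 17 higher and 2 lower became 15 and 6 with loess offsets (17 regions shared with the 19) and 19 and 5 with at least 10 counts in every library. EYA1 had 6 to 8 and DACH1 5 to 7 higher regions without 1 library. The ASO10 against NCA count was 1 to 3 when 1 library was left out (1 without NCA replicate 1 or ASO10 replicate 1). It was 4 by DESeq2, with at least 10 counts in every library and with only the groups compared. Between the oligonucleotides it was 9 by limma-voom and 7 to 16, falling to 7, 8 or 9 without ASO10 replicate 3, ASO2 replicate 1, or ASO2 replicate 2 or 3 or ASO10 replicate 2. Over all regions, loess offsets moved the share of higher calls for ASO10 from 80.6% to 59.3%.

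Gene-end sums had 0 calls in every alternative. Locus sums called for ASO10 were 1 with loess offsets, 1 with the replicate block and 0 to 2 without 1 library. Between the oligonucleotides the called locus sums were 3 with loess offsets, so not all of them were EYA1 or DACH1. They were 2 by DESeq2, limma-voom, at least 10 counts and the 25 kb window, and 1 to 2 without 1 library. EYA1 (log2) with ASO2 was 0.3036 to 0.3613 and DACH1 0.4976 to 0.5995 without 1 library. With ASO10, EYA1 was 0.0671 under loess offsets, 0.1820 with the block and 0.1605 to 0.2015 without 1 library, and DACH1 0.1324 and 0.1982 to 0.2986. Between the oligonucleotides, EYA1 was called at 0.2490 (loess), 0.1513 (DESeq2), 0.1515 (limma-voom), 0.1600 (at least 10 counts), 0.2075 (25 kb) and 0.1815 (without ASO2 replicate 3), with 0.1177 to 0.1815 without 1 library, and DACH1 was 0.2699 to 0.3421. Without the called regions, EYA1 was 0.0298 and 0.0517 against NCA, and DACH1 0.2303, 0.1164 and, between oligonucleotides, 0.1139. Higher counts of EYA1 and DACH1, their sums, those of related genes, and the fit without called regions were alternatives chosen after seeing the data; the cause of these changes was not tested.

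Replicate numbers in the labels are shared between groups, but same-numbered libraries did not deviate together (r from -0.0366 to 0.0127), and 0 of 9 libraries correlated best with their own number. The replicate block gave 20, 3 and 14 regions called. Among the locus sums of the 7 member genes, it changed no call other than that of EYA1 with ASO10 (adjusted p = 0.0636). Among those of related genes, the calls of KLF6 and KLF11 with ASO2 and of KLF9 between the oligonucleotides were lost with the block. With 3 libraries a group, regions of few counts have wide errors, and differences there were often not detectable.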
